A study of Mus musculus with 8 samples.

Results

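A total X-ray dose of 10 Gy given to LLC1 cells as 5 fractions of 2 Gy (5x2 Gy) was compared with the same total given at once. LLC1 is an established cell line from a Lewis lung carcinoma of a C57BL/6 mouse, grown here in serum-containing medium with no host tissue around it. Total RNA was taken 4 h after treatment. Of the 8 dual-colour oligonucleotide arrays of the study, the comparison used the 3 arrays labelled as the fractionated dose (biological replicates 1 to 3) and the 2 arrays labelled as the single 10 Gy dose (biological replicates 1 and 2). On every array the untreated cells were in the Cy3 channel and the irradiated cells in the Cy5 channel, and the dyes were never exchanged. The time between fractions is not given in the labels, and neither is whether arrays shared the same untreated cells. The 3 arrays of a single 2 Gy dose did not enter the difference. They served the estimate of the spread of each gene, the background filter and the choice of probe.

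Ionizing radiation breaks both strands of DNA, and the kinases that sense the breaks stabilise p53, a transcription factor that turns on inhibitors of the cell cycle, its own antagonist Mdm2 and death genes. The same signals hold cells in G2, before mitosis, and genes needed only for mitosis are then less transcribed. Splitting a dose leaves time for repair between fractions, which is why fractionated and single doses of one total are compared in radiation biology.

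The values below are log2 ratios of irradiated over untreated cells for 13409 genes, 1 probe per gene symbol, chosen by the highest mean signal. A probe was kept if it was above background on at least 2 arrays in at least 1 channel. In the irradiated channel 41.6% and 37.1% of all probes were above background on the 10 Gy arrays (replicates 1 and 2) and 34.7% to 36% on the 5x2 Gy arrays. Precision is limited by how few arrays there are. The image names in the file headers placed the arrays on 2 slides: 10 Gy replicate 1 lay on slide 1 with the 2 Gy arrays, and 10 Gy replicate 2 lay on slide 2 with all 5x2 Gy arrays. The 2 single-dose arrays stood apart from each other. Their log2 ratios correlated across genes, which are not independent replicates, at r = 0.427, whereas the r of 10 Gy replicate 2 with the fractionated arrays was 0.748 to 0.854 and that of 10 Gy replicate 1 was 0.358 to 0.424. They differed from each other by at least 1 log2 unit in 1504 genes, while the 5x2 Gy arrays spanned that much in 43. Whether the slide or the cells of the replicate set 10 Gy replicate 1 apart cannot be told apart. Both arrays are therefore shown apart, and the difference against replicate 2 is the difference within slide 2.

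No gene passed the test. With 1 mean per regimen fitted in limma to all 8 arrays, 0 of 13409 genes differed between 5x2 Gy and 10 Gy at an adjusted p under 0.05 (0%), and the lowest adjusted p was 0.172. At an unadjusted p under 0.05 there were 2241 genes (16.7%), of which 1207 had the higher log2 ratio after 5x2 Gy (9%) and 1034 the lower (7.71%). Every SE and p here rests on the spread over all 8 arrays. Arrays of a slide were taken as independent, although the correlation within slide was 0.697 when slide was a random block. With only the 5 arrays compared in limma, the lowest adjusted p was 0.487 and 1341 genes had an unadjusted p under 0.05. With slide as a block in limma, 0 genes passed (0%), the lowest adjusted p was 0.0623, and 1595 genes (11.9%) had an unadjusted p under 0.05. In that fit the single dose is 10 Gy replicate 2 alone, assumed to vary like the other groups. The arrays of the regimens did not overlap in 4026 genes (30%), with the 5x2 Gy arrays all higher in 2085 (15.5%) and all lower in 1941 (14.5%). No gene below is therefore called changed, and a difference that misses the threshold does not show that the regimens act alike.

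The size of the difference depended on the single-dose array. The mean of the 5x2 Gy arrays lay at least 2-fold above 10 Gy replicate 1 in 841 genes (6.27%) and at least 2-fold below it in 610 (4.55%). Against 10 Gy replicate 2 the same counts were 6 (0.0447%) and 11 (0.082%). The SD of the differences over all genes was 0.645 against replicate 1 and 0.254 against replicate 2.

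**Figure D1:**
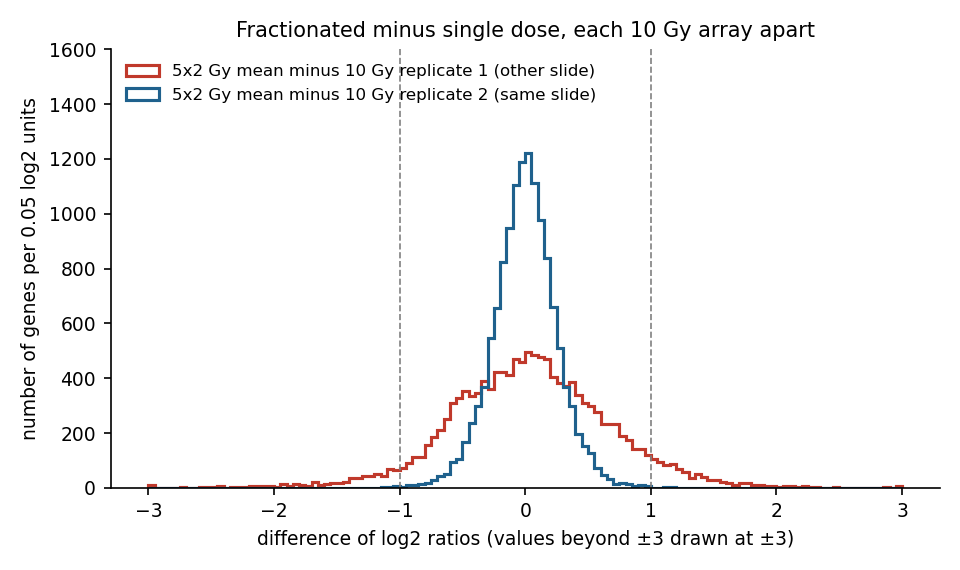
Number of genes (y axis) by the mean log2 ratio of the 5x2 Gy arrays minus that of 1 single-dose array (x axis, log2 units), for 10 Gy replicate 1 (red) and replicate 2 (blue); dashed lines mark 2-fold. The distribution against replicate 1 is the wider one, with an SD of 0.645 against 0.254.

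Most measured genes of the p53 response had lower log2 ratios after 5x2 Gy than after 10 Gy at once. Of 53 listed p53 targets 49 were measured, and their median log2 ratio was 1.60 and 1.00 after 10 Gy and 0.60, 0.57 and 0.65 after 5x2 Gy. Every 5x2 Gy median was below both single-dose medians. The median difference was -0.63 (all genes, 0.0090), -1.03 against replicate 1 and -0.25 against replicate 2. None of the 49 members passed the test in either direction. At an unadjusted p under 0.05 in limma 26 were lower and 1 higher, against 7.71% and 9% of all genes. The arrays did not overlap in 25 members that were lower and 3 higher after 5x2 Gy, against 14.5% and 15.5% of all genes. Within slide 2, 37 members were below 10 Gy replicate 2 and 12 above it, against 6716 and 6692 of all 13409 genes. 10 Gy replicate 2 lay between replicate 1 and the 5x2 Gy mean in 34 of the members (69.4%), as it did in 5549 of all genes (41.4%).

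Cdkn1a encodes p21, the inhibitor of cyclin-dependent kinases through which p53 halts the cycle. Its log2 ratio was 3.73 and 1.47 after 10 Gy and 1.35, 1.15 and 1.30 after 5x2 Gy. The 10 Gy replicate 1 array was far above the other 4, and 10 Gy replicate 2 was only just above the 5x2 Gy arrays. The difference was -1.33 ± 0.51 (SE, limma on 3 against 2 arrays with the spread taken from all 8, adjusted p = 0.256) and -0.20 within slide 2. Mdm2, the ubiquitin ligase that degrades p53, was at 2.90 and 1.38 after 10 Gy and 0.71, 0.57 and 0.74 after 5x2 Gy. All 5x2 Gy arrays were below both single-dose arrays, by -1.47 ± 0.37 (adjusted p = 0.199) in the limma fit and by -0.71 within slide 2. Trp53inp1, a stress protein that p53 induces, was at 3.06 and 2.02 after 10 Gy and 1.44, 0.67 and 1.55 after 5x2 Gy, again without overlap (difference -1.32 ± 0.33, adjusted p = 0.195). Ptpn14, a phosphatase that restrains the growth regulator YAP, was at 1.64 and 1.00 after 10 Gy and 0.51, 0.50 and 0.54 after 5x2 Gy. Its 5x2 Gy arrays were almost level with each other and below both 10 Gy arrays (difference -0.80 ± 0.19, -0.48 within slide 2). Ddit4, an inhibitor of mTOR signalling that is also on the ATF4 list, was at 2.78 and 1.52 after 10 Gy and 1.13, 0.92 and 0.97 after 5x2 Gy, without overlap. Ei24, a membrane protein of the endoplasmic reticulum that p53 induces, was at 2.13 and 1.62 after 10 Gy and 1.30, 1.07 and 1.20 after 5x2 Gy, also without overlap.

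Ccng1, the p53 target cyclin G1, did not share this order. Its log2 ratio was 1.55 and 2.44 after 10 Gy and 1.72, 1.40 and 1.79 after 5x2 Gy, so that 10 Gy replicate 2 was the highest array and replicate 1 lay among the 5x2 Gy arrays. The difference was -0.36 ± 0.25 (adjusted p = 0.439), with 0.082 against replicate 1 and -0.81 against replicate 2, and the kept probes of Ccng1 disagreed in sign. Gdf15, a secreted stress cytokine that p53 induces, was picked after its values were seen, because its arrays lay farthest apart: 5.45 and 0.53 after 10 Gy and 0.20, 0.53 and 0.46 after 5x2 Gy. Only 10 Gy replicate 1 was high, the other single-dose array overlapped the 5x2 Gy arrays, and the difference within slide 2 was -0.13. Trp53, the gene of p53 itself, went the other way. It was at -0.18 and 0.11 after 10 Gy and 0.50, 0.50 and 0.84 after 5x2 Gy, with every 5x2 Gy array above both single-dose arrays and a difference of 0.65 ± 0.17 (adjusted p = 0.199). Gapdh, an enzyme of glycolysis often used as a reference, was at 0.045 and 0.022 after 10 Gy and 0.095, 0.28 and 0.16 after 5x2 Gy (difference 0.14 ± 0.15, adjusted p = 0.616). Its difference was below 0 with median centring in place of loess, with median pixel signals and with the mean over its probes.

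The death genes did not share 1 direction. Of the 40 listed apoptosis genes 36 were measured and 0 passed the test. Within slide 2, 28 members were below 10 Gy replicate 2 and 8 above it, against 6716 and 6692 of all genes. The arrays did not overlap in 10 members that were lower and 4 higher after 5x2 Gy, against 14.5% and 15.5% of all genes. At an unadjusted p under 0.05 in limma 9 were lower and 2 higher after 5x2 Gy, against 7.71% and 9% of all genes. The list median was 0.11 and 0.26 after 10 Gy and 0.15, 0.10 and 0.16 after 5x2 Gy, with 10 Gy replicate 2 highest, and the median difference was -0.086. Of the 9 lower ones, Apaf1, Bax, Bbc3, Fas, Perp and Pmaip1 are also on the p53 list, and Bmf, Cycs and Diablo are not. Pmaip1, which encodes Noxa, a protein that neutralises the survival factor Mcl1, was at 5.16 and 1.87 after 10 Gy and 1.31, 0.63 and 1.12 after 5x2 Gy. All arrays were above 0 and the 5x2 Gy arrays were below both single-dose arrays, by -2.50 ± 0.71 (adjusted p = 0.203) and by -0.85 within slide 2. Fas, the death receptor, was at 3.05 and 1.79 after 10 Gy and 1.34, 1.13 and 1.20 after 5x2 Gy, without overlap (difference -1.20 ± 0.30, adjusted p = 0.197). Perp, a membrane protein of desmosomes that p53 induces, was at 2.79 and 0.92 after 10 Gy and 0.37, 0.40 and 0.26 after 5x2 Gy. Its untreated channel was not well above background on any of these arrays, and its irradiated channel only on the 10 Gy arrays. The 10 Gy values of Perp are therefore lower bounds, and its 5x2 Gy values are ratios of background signals with no order. Apaf1, the scaffold of the apoptosome, was at 1.33 and 0.49 after 10 Gy and -0.10, -0.030 and -0.052 after 5x2 Gy, above 0 on both single-dose arrays and below 0 on every 5x2 Gy array. Bbc3, which encodes Puma and was picked after its values were seen, was at 3.11 and 1.68 after 10 Gy and 1.18, 1.75 and 1.66 after 5x2 Gy, where 10 Gy replicate 2 lay among the 5x2 Gy arrays.

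The opposite order was found for some members. Bcl2, the founding survival factor of its family, was at -0.84 and -0.72 after 10 Gy and -0.079, -0.049 and -0.11 after 5x2 Gy. Both single-dose arrays were well below all 5x2 Gy arrays, which were close to 0. The difference was 0.70 ± 0.13 (adjusted p = 0.172), and at 0.64 within slide 2 it was nearly as large, although 1 of the 3 kept probes of Bcl2 had the other sign. Bok, a pro-death relative of Bax, was likewise higher after 5x2 Gy, at -1.22 and -0.60 after 10 Gy and -0.18, -0.42 and -0.26 after 5x2 Gy.

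**Figure D2:**
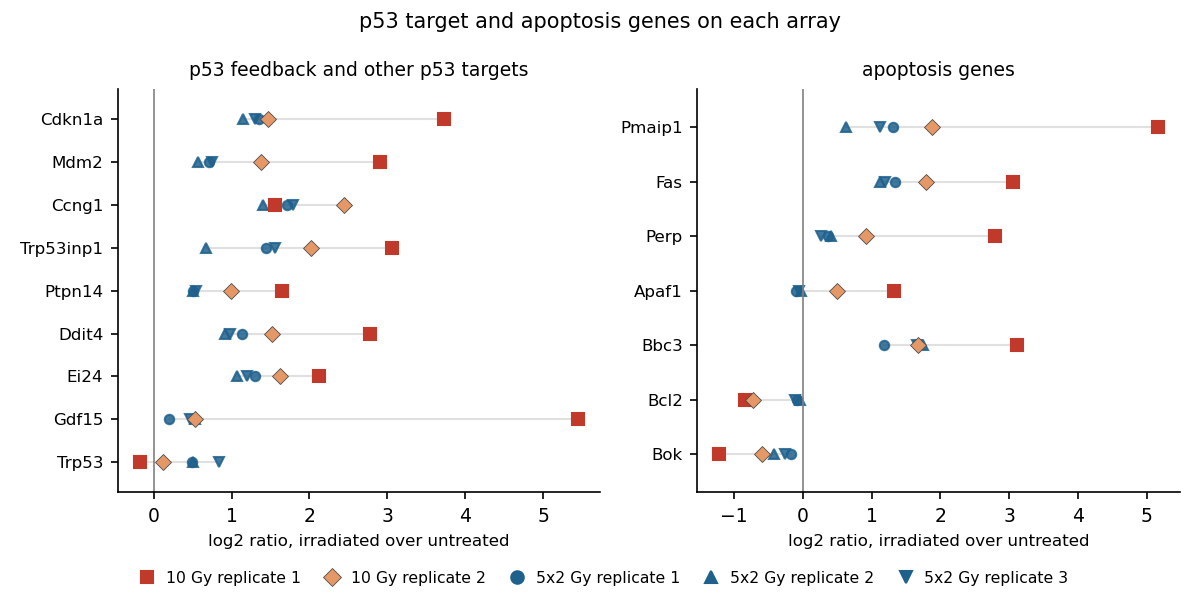
Log2 ratio of irradiated over untreated cells (x axis) of p53 targets with Trp53 (left) and apoptosis genes (right) on each array; red squares and orange diamonds are 10 Gy replicates 1 and 2 and blue symbols the 5x2 Gy replicates. For Mdm2, Fas, Apaf1 and Pmaip1 the orange diamond lies between the red square and the blue symbols, and for Perp the blue symbols are ratios of background signals.

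Most genes of G2 and mitosis had higher log2 ratios after 5x2 Gy than after 10 Gy at once. All 78 listed genes were measured, and their median log2 ratio was -1.72 and -0.48 after 10 Gy and -0.12, -0.40 and -0.22 after 5x2 Gy. The 5x2 Gy medians were the 3 highest, and 10 Gy replicate 1 was by far the lowest. The median difference was 0.77, 1.38 against replicate 1 and 0.20 against replicate 2. None of the 78 passed the test. At an unadjusted p under 0.05 in limma 43 were higher and 1 lower after 5x2 Gy, against 9% and 7.71% of all genes. The arrays did not overlap in 39 members that were higher and in 1 that was lower, against 15.5% and 14.5% of all genes. The 5x2 Gy mean was at least 2-fold above 10 Gy replicate 1 in 53 members and at least 2-fold above replicate 2 in 0. By any amount, 53 of the 78 were above replicate 2, against 6692 of all 13409 genes. In RNA from whole cultures, fewer cells in G2 and mitosis and less RNA of these genes per cell cannot be told apart.

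The promoters of mitosis genes carry a known pair of elements, the CCAAT box and the cell cycle genes homology region, whose core is TTTGAA and which the DREAM and MuvB complexes bind; E2F factors bind TTTGGCGC or TTTCGCGC. RefSeq promoters of 300 bases (250 before and 50 after the start, GRCm38.p6) were at hand for 66 of the 78 genes, 72 promoters in all. Searched on both strands, with matches free to overlap, TTTGAA stood in 65.3% of them, against 17.9% of all 32851 promoters and 12.2% of those of the genes tested. CCAAT stood in 75% against 37.4% of all promoters, and either E2F sequence in 6.94% against 0.813% (37.5% and 1.49% in the genes tested). Among 56 promoters of the p53 target list TTTGAA stood in 12.5% and CCAAT in 50%. In 56 promoters of replication genes the shares were 14.3% for TTTGAA, 58.9% for CCAAT and 23.2% for the E2F sequences, and in 24 promoters of cholesterol genes 8.33%, 75% and 0%. CCAAT was thus as frequent in the cholesterol list as in the mitosis list, and the E2F sequences were more frequent in the replication list. A match is a description of letters and not a bound site. The 120 bases before the start are shown for the mitosis genes of smallest p for which they are printed. Each window holds CCAAT, but TTTGAA stands only in that of Ube2c and TTTGGCGC only in that of Ncapd2. The search above covered more bases than are printed. Capitals mark a match to any of the sequences searched, on either strand. The windows are chr6:125191587-125191706 (minus strand), chr9:70421555-70421674 (minus strand), chr2:164769809-164769928 (plus strand) and chr2:118598091-118598210 (plus strand), each written 5′ to 3′ along the gene.
Ncapd2: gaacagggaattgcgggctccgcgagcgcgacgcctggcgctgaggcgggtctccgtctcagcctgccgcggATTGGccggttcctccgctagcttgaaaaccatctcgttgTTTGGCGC
Ccnb2: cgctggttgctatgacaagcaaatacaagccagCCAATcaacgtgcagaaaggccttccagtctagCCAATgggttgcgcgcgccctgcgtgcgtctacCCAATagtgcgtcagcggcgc
Ube2c: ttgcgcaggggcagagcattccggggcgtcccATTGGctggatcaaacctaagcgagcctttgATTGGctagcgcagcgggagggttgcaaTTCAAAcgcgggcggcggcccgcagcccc
Bub1b: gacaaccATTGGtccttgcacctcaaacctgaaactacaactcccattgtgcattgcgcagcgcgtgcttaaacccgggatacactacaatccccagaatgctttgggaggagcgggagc

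Ncapd2, a subunit of the condensin that compacts chromosomes, was at -1.32 and -0.90 after 10 Gy and -0.26, 0.0053 and -0.056 after 5x2 Gy. Both single-dose arrays were below all 5x2 Gy arrays, which lay at or just below 0. The difference was 1.01 ± 0.18 (limma, adjusted p = 0.172), and 0.80 within slide 2. Ccnb2, a mitotic cyclin whose window above holds 3 CCAAT boxes, was at -0.92 and -0.74 after 10 Gy and 0.038, -0.22 and 0.012 after 5x2 Gy (difference 0.77 ± 0.15, 0.68 within slide 2). The single-dose arrays were close to each other here, so the choice of array mattered little. Ube2c, the ubiquitin-conjugating enzyme of the anaphase-promoting complex, was at -1.90 and -0.62 after 10 Gy and 0.26, -0.020 and 0.26 after 5x2 Gy. It showed no overlap, with 10 Gy replicate 1 more than 1 log2 unit below replicate 2 (difference 1.43 ± 0.30, 0.78 within slide 2). Bub1b, a kinase-like protein of the spindle checkpoint, was at -1.73 and -0.98 after 10 Gy and 0.00, -0.49 and -0.35 after 5x2 Gy. Cdc25c, the phosphatase that activates Cdk1 at the entry into mitosis, was at -1.39 and -0.51 after 10 Gy and 0.16, 0.0067 and 0.14 after 5x2 Gy. For Cdc25c all 5x2 Gy arrays were above 0 and both single-dose arrays below. Kif20a, a kinesin of cytokinesis, was at -2.04 and -0.97 after 10 Gy and -0.14, -0.24 and -0.059 after 5x2 Gy (difference 1.36 ± 0.27, adjusted p = 0.172, 0.83 within slide 2).

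In other mitosis genes the single-dose arrays lay more than 2 log2 units apart. Ccnb1, the main mitotic cyclin, and Plk1, the polo kinase, were picked after their values were seen. Ccnb1 was at -3.49 and -1.05 after 10 Gy and -0.11, -0.48 and -0.24 after 5x2 Gy. Plk1 was at -3.03 and -0.57 after 10 Gy and -0.090, -0.089 and 0.020 after 5x2 Gy. Both genes had no overlap between regimens, but the difference of Ccnb1 was 3.21 against replicate 1 and 0.77 within slide 2, and that of Plk1 2.97 and 0.52. Kifc1, a minus-end kinesin, was the member with the opposite order: it was at 1.10 and 0.64 after 10 Gy and 0.31, -0.17 and 0.060 after 5x2 Gy, with all 5x2 Gy arrays below both single-dose arrays (difference -0.80 ± 0.19, adjusted p = 0.192).

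Genes of DNA replication did not keep 1 direction against both single-dose arrays. Of the 60 listed G1/S and replication genes, all measured, 0 passed the test. At an unadjusted p under 0.05 in limma 13 were higher and 2 lower, against 9% and 7.71% of all genes. Their median log2 ratio was -0.78 and -0.28 after 10 Gy and -0.28, -0.43 and -0.41 after 5x2 Gy, so 10 Gy replicate 2 was level with the highest 5x2 Gy array and replicate 1 was below all others. The list's median difference was 0.17, 0.43 against replicate 1 and -0.038 within slide 2. Cdt1, which loads the replicative helicase, was at -0.61 and -0.23 after 10 Gy and 0.14, 0.17 and 0.082 after 5x2 Gy, below 0 on the single-dose arrays and above 0 on the 5x2 Gy arrays. Orc1, a subunit of the origin recognition complex, was at -1.21 and -0.29 after 10 Gy and -0.011, 0.10 and 0.055 after 5x2 Gy. Mcm4, a helicase subunit, was at -1.20 and -0.69 after 10 Gy and -0.35, -0.48 and -0.52 after 5x2 Gy. Both were without overlap. Within the clamp loader the subunits were opposed. Rfc2 was at -0.86 and -0.030 after 10 Gy and 0.14, 0.17 and 0.36 after 5x2 Gy, higher after 5x2 Gy, whereas Rfc3 was at 0.074 and -0.28 after 10 Gy and -0.64, -0.73 and -0.61 after 5x2 Gy, lower after 5x2 Gy. Rpa3, the smallest subunit of the protein that covers single-stranded DNA, was also lower, at -0.22 and -0.53 after 10 Gy and -0.59, -1.05 and -0.93 after 5x2 Gy.

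Repair genes, like replication genes, had list medians that differed in sign against the single-dose arrays. The 45 measured recombination and Fanconi anaemia genes had a median of -0.67 and -0.050 after 10 Gy and -0.13, -0.24 and -0.22 after 5x2 Gy, and the 21 end joining and damage signalling genes one of -0.27 and -0.082 after 10 Gy and 0.064, 0.010 and -0.033 after 5x2 Gy. None of either list passed the test. At an unadjusted p under 0.05 in limma, 4 and 3 members were higher after 5x2 Gy and 0 and 0 lower. Over all genes 9% were higher and 7.71% lower, so these small counts are not read as an order of the lists. The median difference within slide 2 was -0.11 for recombination and -0.027 for end joining, the opposite sign to that against replicate 1 (0.52 and 0.22). Fanci, a clamp of the crosslink repair pathway, was at -0.40 and -0.064 after 10 Gy and 0.23, 0.24 and 0.17 after 5x2 Gy. Exo1, the nuclease that resects DNA ends, was at -1.79 and -0.85 after 10 Gy and -0.52, -0.84 and -0.73 after 5x2 Gy. For Exo1 the 10 Gy replicate 2 array was just below the lowest 5x2 Gy array and replicate 1 well below. Polm, a polymerase of end joining, was at -0.85 and -0.11 after 10 Gy and 0.16, 0.28 and 0.18 after 5x2 Gy, on opposite sides of 0 in the regimens. Xrcc5, which encodes the Ku80 protein that holds broken ends, was at -0.094 and 0.54 after 10 Gy and 0.60, 0.68 and 0.69 after 5x2 Gy, where 10 Gy replicate 1 alone was below 0.

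Histone genes were read with caution because their sequences are nearly alike and a probe may bind several. Of 44 listed replication-dependent histone genes 23 were on the array and 20 were measured. Their median was -0.22 and -0.25 after 10 Gy and -0.11, 0.15 and 0.037 after 5x2 Gy, and 0 passed the test. At an unadjusted p under 0.05 in limma 5 were higher and 1 lower after 5x2 Gy, against 9% and 7.71% of all genes. H1f2, a linker histone, was at -1.09 and -0.55 after 10 Gy and 0.034, 0.77 and 0.43 after 5x2 Gy (difference 1.23 ± 0.26, adjusted p = 0.172). H2bc4, a core histone H2B, was at 0.069 and 0.036 after 10 Gy and 0.57, 0.95 and 0.87 after 5x2 Gy. Both had every 5x2 Gy array above both single-dose arrays. H2bc14 was at -0.16 and -0.57 after 10 Gy and 0.055, 0.43 and -0.026 after 5x2 Gy, likewise without overlap, while H3c4, a core histone H3, was lower after 5x2 Gy at 0.17 and -0.31 after 10 Gy and -1.15, -1.01 and -0.86 after 5x2 Gy (difference -0.94 ± 0.20, adjusted p = 0.172).

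Most genes of sterol and fatty acid synthesis had log2 ratios below 0 in both regimens, and less so after 5x2 Gy. Of 32 listed genes 31 were measured, with a median of -1.34 and -1.02 after 10 Gy and -0.85, -0.61 and -0.74 after 5x2 Gy. Every 5x2 Gy median was above both single-dose medians. Their difference had a median of 0.53, 0.68 against replicate 1 and 0.35 against replicate 2, the largest list median within slide 2 in either direction. None passed the test. At an unadjusted p under 0.05 in limma 15 were higher and 0 lower, against 9% and 7.71% of all genes. The arrays did not overlap in 18 members, all higher after 5x2 Gy, against 15.5% of all genes higher and 14.5% lower. Within slide 2, 28 members were above 10 Gy replicate 2 and 3 below, against 6692 and 6716 of all genes.

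Srebf2 encodes SREBP2, the transcription factor that turns on the genes of sterol synthesis. It was at -1.54 and -1.65 after 10 Gy and -1.09, -0.68 and -0.46 after 5x2 Gy. The single-dose arrays were level with each other and below all 5x2 Gy arrays, by 0.85 ± 0.19 (limma, adjusted p = 0.18) and by 0.91 within slide 2, with 1 of its 4 kept probes of the other sign. Mvk, mevalonate kinase, was at -0.47 and -0.34 after 10 Gy and 0.017, 0.38 and 0.15 after 5x2 Gy, on opposite sides of 0. Dhcr7, a reductase of cholesterol synthesis, was at -1.54 and -0.38 after 10 Gy and -0.022, 0.27 and 0.12 after 5x2 Gy, with 10 Gy replicate 1 far below the rest. Scd2, a desaturase that makes monounsaturated fatty acids, was at -2.76 and -2.04 after 10 Gy and -0.72, -0.93 and -1.17 after 5x2 Gy. All its values were below 0, and the 5x2 Gy arrays were the highest by 1.46 ± 0.23 (adjusted p = 0.172) and by 1.10 within slide 2 (adjusted p = 0.08 with slide as a block).

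**Figure D3:**
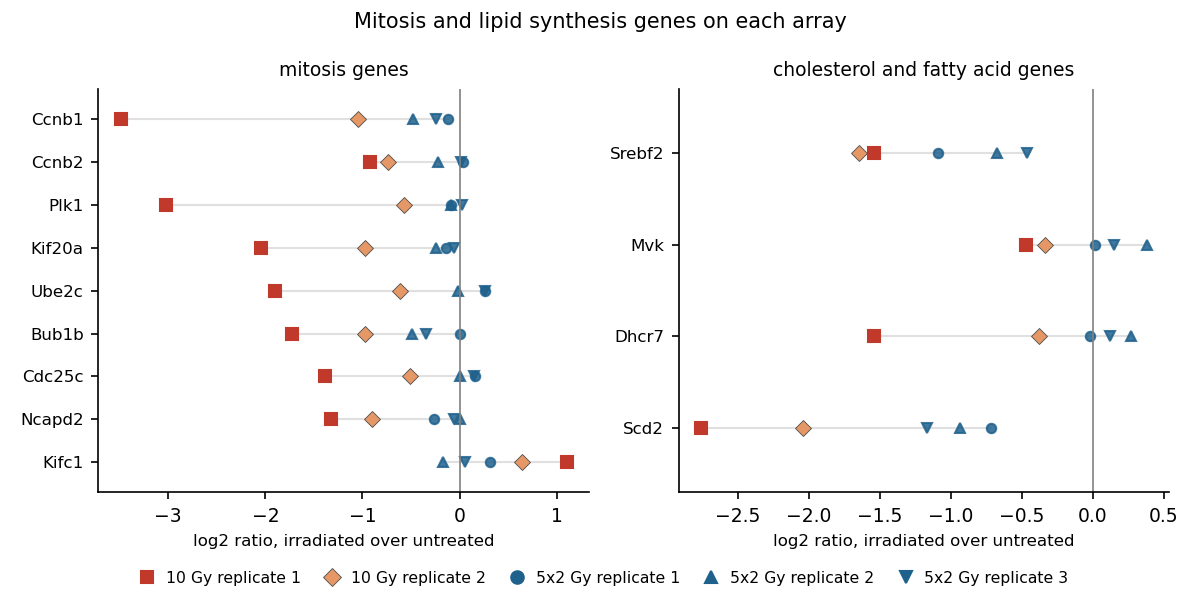
Log2 ratio of irradiated over untreated cells (x axis) of mitosis genes (left) and genes of sterol and fatty acid synthesis (right) on each array; symbols are coloured by array, with 10 Gy replicates 1 and 2 in red and orange and the 5x2 Gy replicates in blue. The blue symbols lie to the right of both single-dose symbols for each gene shown but Kifc1, where they lie to the left.

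Matrix genes differed in direction from member to member. Of 55 listed genes of the extracellular matrix and of the response to TGF-beta 47 were measured, with a median of 0.20 and 0.084 after 10 Gy and 0.0010, 0.31 and 0.17 after 5x2 Gy, and the arrays of the regimens overlapped in these medians. None passed the test, and 31 were above 10 Gy replicate 2 and 16 below, against 6692 and 6716 of all genes. At an unadjusted p under 0.05 in limma 9 were higher and 5 lower, against 9% and 7.71% of all genes. Thbs2, a matrix glycoprotein that restrains vessel growth, was at 0.45 and 0.21 after 10 Gy and 1.13, 1.12 and 1.21 after 5x2 Gy. The 5x2 Gy arrays were close together and above both single-dose arrays, by 0.82 ± 0.14 (limma, adjusted p = 0.172) and by 0.94 within slide 2 (adjusted p = 0.0623 with slide as a block). Tgfbi, a matrix protein named for its induction by TGF-beta, was at 0.41 and 0.51 after 10 Gy and 1.32, 1.49 and 1.43 after 5x2 Gy (difference 0.95 ± 0.21, adjusted p = 0.173, 0.90 within slide 2). The single-dose arrays of Tgfbi were almost level, so the gap did not rest on 1 of them. Mmp3, a secreted matrix protease, was at -0.97 and 0.57 after 10 Gy and 1.23, 1.19 and 1.28 after 5x2 Gy. Mmp14, the membrane-bound protease that activates other proteases, was at 0.67 and 0.44 after 10 Gy and 1.09, 1.08 and 0.90 after 5x2 Gy. Both had no overlap, but for Mmp3 the single-dose arrays lay on opposite sides of 0. Tgfbr2, the receptor for TGF-beta, was at -0.77 and 0.26 after 10 Gy and 0.55, 0.61 and 0.67 after 5x2 Gy. Smad7, the inhibitor that the TGF-beta signal induces, was lower after 5x2 Gy at 0.88 and 0.56 after 10 Gy and 0.30, 0.18 and 0.29 after 5x2 Gy, where the irradiated channel was above background on no 5x2 Gy array.

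The labelled cell type was checked against its markers. In untreated cells all 9 mesenchymal markers were above background on all 5 arrays, whereas of 10 epithelial markers 3 (the keratins Krt8, Krt18 and Krt19) were, and Epcam, Cdh1, Esrp1 and Grhl2 were above it on none. The lung lineage factor Nkx2-1, the leukocyte marker Ptprc and 5 of 8 endothelial markers were above background on no array, and none of the 8 endothelial markers was on all 5. Of 13 leukocyte markers 3 (Cd3e, Cd14 and Cd68) and of 10 lung markers 1 (Hopx) were above background on all arrays in untreated cells. Cd3e lay near background there, at a mean log2 signal of 8.32 against 11.57 for Cd14 and 7.72 for Ptprc. In the irradiated channel Cd3e was above background on 0 of the 5 arrays. The part of such markers in the results was not tested. Krt8, a keratin of simple epithelia, was at -0.72 and 0.064 after 10 Gy and 0.88, 0.79 and 0.66 after 5x2 Gy (difference 1.10 ± 0.21, adjusted p = 0.172, 0.71 within slide 2), without overlap. Krt19 was at -0.71 and -1.02 after 10 Gy and -0.55, 0.27 and -0.24 after 5x2 Gy, also higher after 5x2 Gy. Snai2, a repressor of epithelial genes, was at -1.53 and -0.51 after 10 Gy and -0.31, -0.22 and -0.30 after 5x2 Gy. It was likewise higher on every 5x2 Gy array, with 10 Gy replicate 2 just below them. These keratins do not stand for their list. The median difference was -0.036 over the 7 epithelial markers measured, with Krt7 at -0.94, and 0.27 over the 9 mesenchymal markers.

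Most nuclear genes of the respiratory chain had lower log2 ratios after 5x2 Gy than after 10 Gy at once. Of 68 listed genes 60 were measured, with a median of 0.35 and 0.092 after 10 Gy and -0.11, -0.23 and -0.17 after 5x2 Gy, above 0 on both single-dose arrays and below 0 on every 5x2 Gy array. Member by member, the median difference was -0.35, -0.48 against replicate 1 and -0.20 against replicate 2. None passed the test. At an unadjusted p under 0.05 in limma 24 were lower and 0 higher after 5x2 Gy, against 7.71% and 9% of all genes. The arrays did not overlap in 31 members, all lower, against 14.5% of all genes lower and 15.5% higher. Within slide 2, 53 of 60 were below 10 Gy replicate 2, against 6716 of all 13409 genes. The size, not the sign, depended on the normalization: the median was -0.716 with median centring in place of loess.

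Of the 6 members with the smallest p 5 belong to complex I, which passes electrons from NADH to ubiquinone. The share of complex I genes among all measured members was not counted, so no preference for complex I is read from this. Ndufb6 was at 0.79 and 0.21 after 10 Gy and -0.32, -0.44 and -0.52 after 5x2 Gy, on opposite sides of 0 (difference -0.93 ± 0.21, limma adjusted p = 0.183, -0.64 within slide 2). Ndufa6 was at 0.56 and 0.40 after 10 Gy and 0.018, -0.16 and -0.10 after 5x2 Gy, with the single-dose arrays close together, and Ndufb5 at 0.41 and 0.27 after 10 Gy and -0.25, -0.16 and -0.077 after 5x2 Gy. Ndufc1 was at 0.45 and -0.17 after 10 Gy and -0.56, -0.81 and -0.50 after 5x2 Gy. Ndufc2 was at 1.41 and 0.50 after 10 Gy and 0.26, -0.0077 and -0.11 after 5x2 Gy. Both had 10 Gy replicate 1 well above replicate 2. Cox5a, a subunit of cytochrome c oxidase, was at -0.0018 and 0.19 after 10 Gy and -0.37, -0.46 and -0.57 after 5x2 Gy (difference -0.56 ± 0.15), and here the difference within slide 2, -0.66, was the larger one. The transcripts encoded by mitochondrial DNA itself did not follow. Of the 4 measured, ND4 was at -2.54 and -0.15 after 10 Gy and -0.18, 0.52 and 0.52 after 5x2 Gy. COX2 was at -1.75 and -0.089 after 10 Gy and 0.019, 0.062 and 0.32 after 5x2 Gy. CYTB was at -1.45 and 0.11 after 10 Gy and 0.19, 0.55 and 0.44 after 5x2 Gy. In these 3 the 10 Gy replicate 1 array was more than 1 log2 unit below every other array. ATP6 was at -1.66 and 0.54 after 10 Gy and 0.26, 0.25 and 0.14 after 5x2 Gy, where 10 Gy replicate 2 was the highest array and the difference turned from 0.77 to -0.33 within slide 2. Spots of 3 of the 4 were saturated on at least 1 array.

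Ribosomal protein genes gave a list difference that rested on 1 array. All 79 were measured, with a median of 1.10 and 0.24 after 10 Gy and 0.15, 0.18 and 0.24 after 5x2 Gy. Only 10 Gy replicate 1 was high. The median difference was -0.48, -0.91 against replicate 1 and -0.026 within slide 2, and it was -0.013 with the spots that carry a flag left out. At least 1 array had a saturated spot in 59 of the 79, and processed pseudogenes share their sequences, so single values are uncertain. None passed the test. At an unadjusted p under 0.05 in limma 20 were lower and 1 higher, against 7.71% and 9% of all genes. Within slide 2, 44 members were below 10 Gy replicate 2 and 35 above, against 6716 and 6692 of all genes. The members named next were chosen by smallest p or by the gap, which favours genes whose regimens lie apart. Rpl15, a protein of the large subunit, was at 1.24 and 1.76 after 10 Gy and 0.072, 0.20 and 0.29 after 5x2 Gy. Both single-dose arrays were far above the 5x2 Gy arrays, by -1.31 ± 0.21 (adjusted p = 0.172) and by -1.57 within slide 2 (adjusted p = 0.0623 with slide as a block). Rpl32 was at 1.68 and 1.29 after 10 Gy and 0.46, 0.18 and 0.46 after 5x2 Gy. Rpl23 was at 0.75 and 0.87 after 10 Gy and 0.045, 0.024 and 0.013 after 5x2 Gy. Rpl9 was at 0.84 and 0.98 after 10 Gy and 0.090, 0.078 and 0.14 after 5x2 Gy. In all 3 the single-dose arrays lay together above the 5x2 Gy arrays, although another kept probe of Rpl23 had the other sign. Rpl11, which binds Mdm2 when ribosome assembly is disturbed, was at 0.85 and 0.71 after 10 Gy and 0.37, -0.055 and 0.10 after 5x2 Gy. Rpl26, the member with the opposite order, was at -0.78 and -0.051 after 10 Gy and 0.19, 0.59 and 0.32 after 5x2 Gy.

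In the stress response lists 10 Gy replicate 1 was the array that stood apart. The 33 measured genes of the ATF4 and amino acid response had a median of 0.50 and -0.38 after 10 Gy and -0.43, -0.32 and -0.36 after 5x2 Gy. Over both single-dose arrays the median difference was -0.52, but 0.15 within slide 2. Atf4, the transcription factor of the pathway, was at 0.38 and -0.80 after 10 Gy and -0.93, -0.96 and -1.07 after 5x2 Gy. Atf3 was at 1.98 and -0.30 after 10 Gy and -0.62, -0.54 and -0.50 after 5x2 Gy, with its irradiated channel above background on only 1 of the 5x2 Gy arrays. For both only 10 Gy replicate 1 was above 0. Cth, an enzyme that makes cysteine, was at 0.033 and -0.99 after 10 Gy and -1.66, -1.72 and -1.50 after 5x2 Gy, with no 5x2 Gy array above background in the irradiated channel. The 33 NRF2 and glutathione genes had a median of 0.85 and -0.058 after 10 Gy and 0.11, 0.035 and 0.14 after 5x2 Gy. Nqo1, a quinone reductase and standard NRF2 target, was nonetheless without overlap at 2.49 and 1.74 after 10 Gy and 1.37, 0.46 and 1.19 after 5x2 Gy (difference -1.11 ± 0.29, limma adjusted p = 0.199, -0.73 within slide 2). Gss, glutathione synthetase, was at 1.35 and 1.35 after 10 Gy and 1.02, 0.75 and 1.06 after 5x2 Gy, with level single-dose arrays above all 5x2 Gy arrays. Of these 2 lists 0 genes passed the test. At an unadjusted p under 0.05 in limma 7 and 5 were lower and 2 and 0 higher after 5x2 Gy. Over all genes 7.71% were lower and 9% higher.

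Chaperone genes had a median of -0.12 and 0.060 after 10 Gy and 0.024, -0.053 and 0.014 after 5x2 Gy over 38 members. None passed the test. At an unadjusted p under 0.05 in limma 6 were lower and 0 higher, against 7.71% and 9% of all genes. Cryab, a small heat shock protein, was at 4.95 and 1.70 after 10 Gy and 0.94, 1.04 and 1.16 after 5x2 Gy, all above 0, with 10 Gy replicate 1 far above replicate 2 and both above the 5x2 Gy arrays (difference -2.28 ± 0.73, adjusted p = 0.222, -0.65 within slide 2). Hspa1b, an inducible Hsp70, was at 0.96 and 0.73 after 10 Gy and 0.19, -0.019 and 0.17 after 5x2 Gy. Its irradiated channel was above background on only 1 of the 5x2 Gy arrays. Hspe1, the mitochondrial co-chaperonin, was at -0.13 and -0.38 after 10 Gy and -0.78, -1.12 and -0.76 after 5x2 Gy. Both were lower on every 5x2 Gy array.

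The lists of MHC class I and interferon genes had small median differences within slide 2. The 24 genes of MHC class I presentation had a median of 0.81 and 0.22 after 10 Gy and 0.25, 0.23 and 0.25 after 5x2 Gy and the 21 type I interferon genes one of 0.60 and 0.39 after 10 Gy and 0.37, 0.33 and 0.48 after 5x2 Gy, both above 0 on every array. The median difference was -0.24 and -0.062, with 0.042 and 0.021 within slide 2, and 0 genes passed the test. At an unadjusted p under 0.05 in limma 2 and 3 were lower and 1 and 2 higher, against 7.71% and 9% of all genes. Tap1, a peptide transporter that is also a p53 target, was at 2.15 and 1.09 after 10 Gy and 0.77, 0.91 and 0.98 after 5x2 Gy. Psmb8, a subunit of the immunoproteasome, was at 1.36 and 0.58 after 10 Gy and 0.49, 0.13 and 0.23 after 5x2 Gy. Both were lower on every 5x2 Gy array. Tapbp, which encodes tapasin, was the reverse at 0.63 and 0.56 after 10 Gy and 1.09, 1.01 and 0.98 after 5x2 Gy, although 1 of its 2 kept probes had the other sign. Isg15, a ubiquitin-like interferon product, was at 0.64 and 0.55 after 10 Gy and 0.33, 0.10 and 0.063 after 5x2 Gy. Ifi35 was at 1.55 and 1.29 after 10 Gy and 1.19, 0.72 and 0.86 after 5x2 Gy, with 5x2 Gy lower. Sting1, an adaptor in the response to cytosolic DNA, was at -1.48 and 0.33 after 10 Gy and 0.40, 0.49 and 0.53 after 5x2 Gy, where 10 Gy replicate 1 alone was below 0.

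The 30 cytokine, chemokine and NF-kB genes had a median of 0.22 and -0.016 after 10 Gy and 0.075, -0.10 and -0.051 after 5x2 Gy. None passed the test. At an unadjusted p under 0.05 in limma 3 were higher and 2 lower, against 9% and 7.71% of all genes. Cxcl5, a chemokine that attracts neutrophils, was at -0.39 and 0.00 after 10 Gy and 0.54, 0.80 and 0.76 after 5x2 Gy (difference 0.89 ± 0.19, adjusted p = 0.172, 0.70 within slide 2). Vcam1, an adhesion molecule for leukocytes, was at -1.40 and -0.13 after 10 Gy and 0.30, 0.36 and 0.34 after 5x2 Gy, with 1 of its 2 kept probes of the other sign. Both were above 0 on all 5x2 Gy arrays and below 0 on the single-dose arrays, though 10 Gy replicate 2 of Cxcl5 was at 0 to 2 decimals. Ccl7, a chemokine for monocytes, was lower after 5x2 Gy at 1.44 and 0.31 after 10 Gy and 0.0048, -0.52 and -0.14 after 5x2 Gy. Hmgb1, a chromatin protein that acts as a danger signal outside the cell, was also lower at -0.48 and -0.092 after 10 Gy and -0.87, -1.20 and -1.01 after 5x2 Gy (difference -0.74 ± 0.17, -0.93 within slide 2), with 2 of its 4 kept probes of the other sign.

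The early growth genes, 33 measured, had a median of 0.32 and -0.26 after 10 Gy and -0.25, -0.19 and -0.14 after 5x2 Gy, with 10 Gy replicate 1 alone above 0. None passed the test. At an unadjusted p under 0.05 in limma 3 were higher and 5 lower, against 9% and 7.71% of all genes. Nr4a1, an orphan nuclear receptor of the early response, was at 0.65 and 0.18 after 10 Gy and -0.051, -0.37 and -0.24 after 5x2 Gy, above 0 on the single-dose arrays only. Spry1, a feedback inhibitor of receptor kinases, was at -1.54 and -0.99 after 10 Gy and -0.76, -0.41 and -0.64 after 5x2 Gy. Etv5, a transcription factor downstream of MAPK signals, was at -0.74 and 0.18 after 10 Gy and 0.47, 0.44 and 0.44 after 5x2 Gy. Both were higher on every 5x2 Gy array.

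Metabolic and lysosomal genes completed the lists. The 37 glycolysis and hypoxia genes had a median of -0.47 and -0.43 after 10 Gy and -0.40, -0.12 and -0.25 after 5x2 Gy. Their median difference was 0.18, and 0.15 within slide 2. Without overlap, 11 members were higher after 5x2 Gy and 2 lower, against 15.5% and 14.5% of all genes. Slc2a3, a glucose transporter, was at -0.63 and -0.27 after 10 Gy and 0.12, 0.035 and 0.090 after 5x2 Gy. Slc16a1, a lactate transporter, was at -2.07 and -0.50 after 10 Gy and -0.0034, -0.20 and -0.29 after 5x2 Gy. Both were higher after 5x2 Gy. Pfkfb4, a regulator of glycolytic flux, was lower at 1.02 and -0.040 after 10 Gy and -0.34, -0.23 and -0.26 after 5x2 Gy. The 42 lysosome and autophagy genes had a median of 0.37 and 0.33 after 10 Gy and 0.33, 0.36 and 0.41 after 5x2 Gy, and the sign of their median difference (0.065) turned with median centring, with median pixel signals and with flagged spots left out. Ctsb, a lysosomal protease, was at -0.25 and 0.26 after 10 Gy and 1.02, 0.60 and 0.63 after 5x2 Gy, with 1 of its 2 kept probes of the other sign. Glb1, the enzyme behind the senescence stain, was at -0.21 and -0.19 after 10 Gy and 0.10, 0.32 and 0.33 after 5x2 Gy. Atp6v1a, a subunit of the proton pump, was at -0.48 and 0.57 after 10 Gy and 0.89, 0.78 and 0.90 after 5x2 Gy. The 19 clock and senescence genes had a median of -0.10 and -0.21 after 10 Gy and -0.28, -0.25 and -0.24 after 5x2 Gy. Lmnb1, a nuclear lamin lost in senescence, was at -1.42 and -0.70 after 10 Gy and 0.0069, -0.14 and -0.34 after 5x2 Gy, with every 5x2 Gy array above both single-dose arrays (difference 0.90 ± 0.22, limma adjusted p = 0.192). Ciart, a repressor of the circadian clock, was at 0.67 and 0.28 after 10 Gy and -0.48, -0.29 and -0.24 after 5x2 Gy, but neither channel was well above background on any 5x2 Gy array, so its 5x2 Gy values and their sign are not read. None of these 3 lists held a gene that passed the test. At an unadjusted p under 0.05 in limma the counts higher and lower were 7 and 1, 7 and 3, and 3 and 3. Over all genes the shares were 9% and 7.71%.

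**Figure D4:**
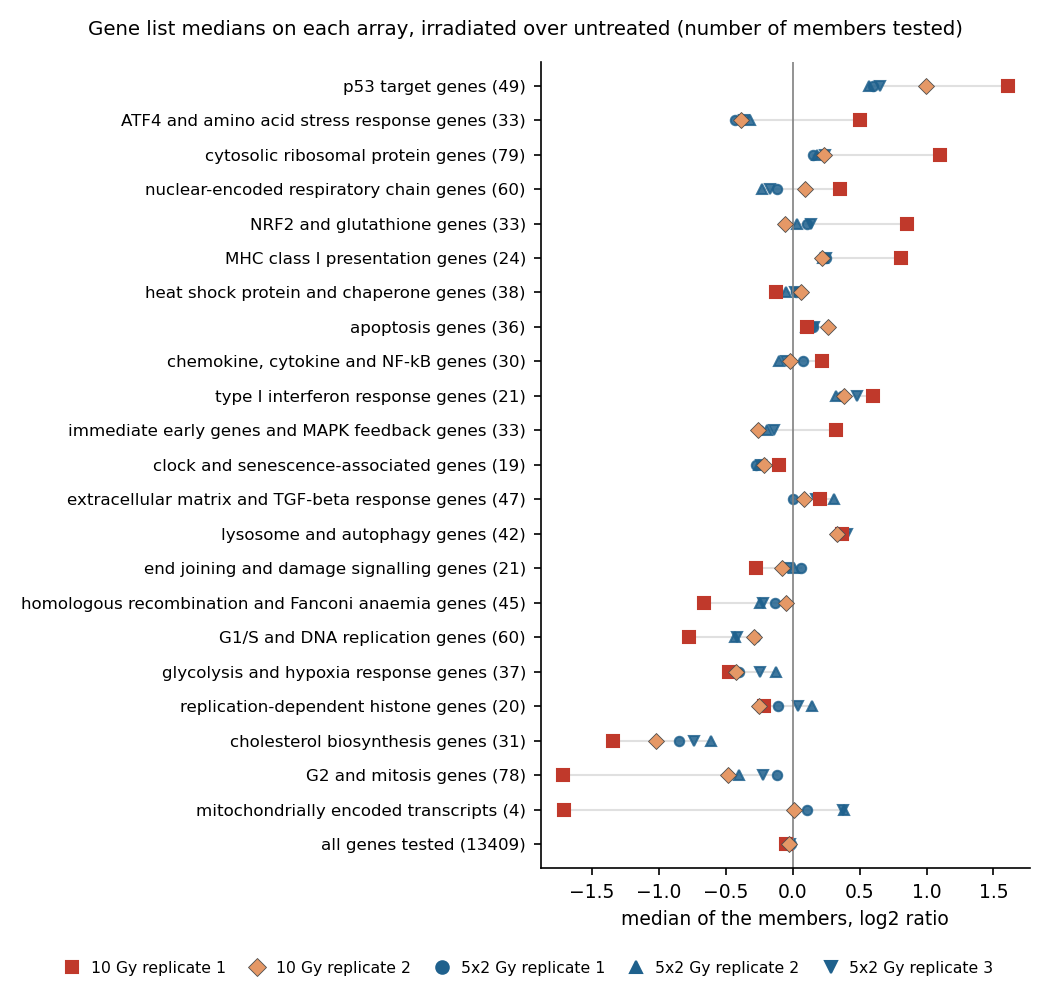
Median log2 ratio of irradiated over untreated cells over the tested members of each list (x axis) on each array, with the number of members in brackets; red squares and orange diamonds are 10 Gy replicates 1 and 2 and blue symbols the 5x2 Gy replicates. For the ribosomal, ATF4, NRF2 and MHC class I lists the orange diamond lies with or close to the blue symbols, while for the p53, respiratory chain and cholesterol lists it lies apart from them.

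Since no gene was called, the genes with the widest empty gap between the nearest arrays of the regimens were taken, 12 in each direction, by a rule added after the test had made no calls. These genes were chosen by that gap, so their differences are a description. In all genes a gap of at least 0.5 log2 units was found in 53 genes with 5x2 Gy higher and 56 with 5x2 Gy lower. Besides Scd2, Tgfbi and Kif20a above, the higher ones were the following. Rnf157, a ubiquitin ligase, was at -0.93 and -0.59 after 10 Gy and 0.46, 0.48 and 0.73 after 5x2 Gy. Ttc26, a subunit of the transport complex of cilia, was at -0.99 and -0.67 after 10 Gy and 0.37, 0.23 and 0.22 after 5x2 Gy. Both were below 0 on the single-dose arrays and above 0 on every 5x2 Gy array. Ap3b2, a subunit of a vesicle adaptor, was at -0.53 and -0.29 after 10 Gy and 0.47, 0.86 and 0.58 after 5x2 Gy. Arl6ip1, a membrane-shaping protein of the endoplasmic reticulum, was at -0.98 and -0.55 after 10 Gy and 0.32, 0.29 and 0.20 after 5x2 Gy. Scamp4, a secretory carrier membrane protein, was at -0.62 and -0.85 after 10 Gy and 0.11, 0.11 and 0.16 after 5x2 Gy. Cit, which encodes citron kinase and acts in cytokinesis, was at -0.83 and -0.69 after 10 Gy and 0.025, 0.33 and 0.27 after 5x2 Gy. Across these 4 genes the sign again divided the regimens. Prl2c3 was at -1.60 and -1.39 after 10 Gy and -0.49, -0.048 and -0.23 after 5x2 Gy. Prl2c5 was at -1.83 and -0.78 after 10 Gy and -0.035, -0.022 and 0.15 after 5x2 Gy. Xkr5 was at -0.59 and 0.35 after 10 Gy and 1.14, 1.14 and 1.06 after 5x2 Gy. Prl2c3 and Prl2c5 are members of the proliferin family, whose copies are so alike that a probe may not separate them.

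On the lower side, besides Rpl15, Rpl32, Rpl23 and Rpl9 above, Cgref1, a secreted protein with calcium-binding EF hands, was at 3.22 and 2.15 after 10 Gy and 0.97, 1.17 and 0.96 after 5x2 Gy. Pitpnc1, a phosphatidylinositol transfer protein, was at 2.08 and 2.02 after 10 Gy and 1.05, 0.55 and 0.84 after 5x2 Gy, with level single-dose arrays about 1 log2 unit above the 5x2 Gy arrays and the same sign in its 5 kept probes. Psmb3, a core subunit of the proteasome, was at 1.15 and 0.78 after 10 Gy and -0.19, -0.50 and -0.40 after 5x2 Gy, again divided by sign. Its difference was -1.33 ± 0.19 (limma, adjusted p = 0.172), and -1.14 within slide 2. Fgf18, a fibroblast growth factor, was at 2.52 and 1.22 after 10 Gy and 0.49, 0.25 and 0.27 after 5x2 Gy. Celf5, an RNA-binding protein, was at 4.17 and 1.84 after 10 Gy and 0.98, 1.15 and 1.12 after 5x2 Gy, all lower bounds, since its untreated channel was not well above background on any of these arrays. In both the 10 Gy replicate 1 array was more than 1 log2 unit above replicate 2. Dennd2c, an activator of Rab proteins, was at 1.66 and 1.01 after 10 Gy and 0.29, 0.31 and 0.29 after 5x2 Gy. Cfl1, which encodes the actin-severing protein cofilin, was at 1.24 and 0.98 after 10 Gy and 0.15, 0.16 and 0.31 after 5x2 Gy, with 1 of its 2 kept probes of the other sign. Ostf1 was at 0.79 and 0.99 after 10 Gy and 0.13, 0.033 and 0.091 after 5x2 Gy. Their 5x2 Gy arrays were all close to 0, and their single-dose arrays lay together well above them for Cfl1 and Ostf1 and farther apart for Dennd2c.

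**Figure D5:**
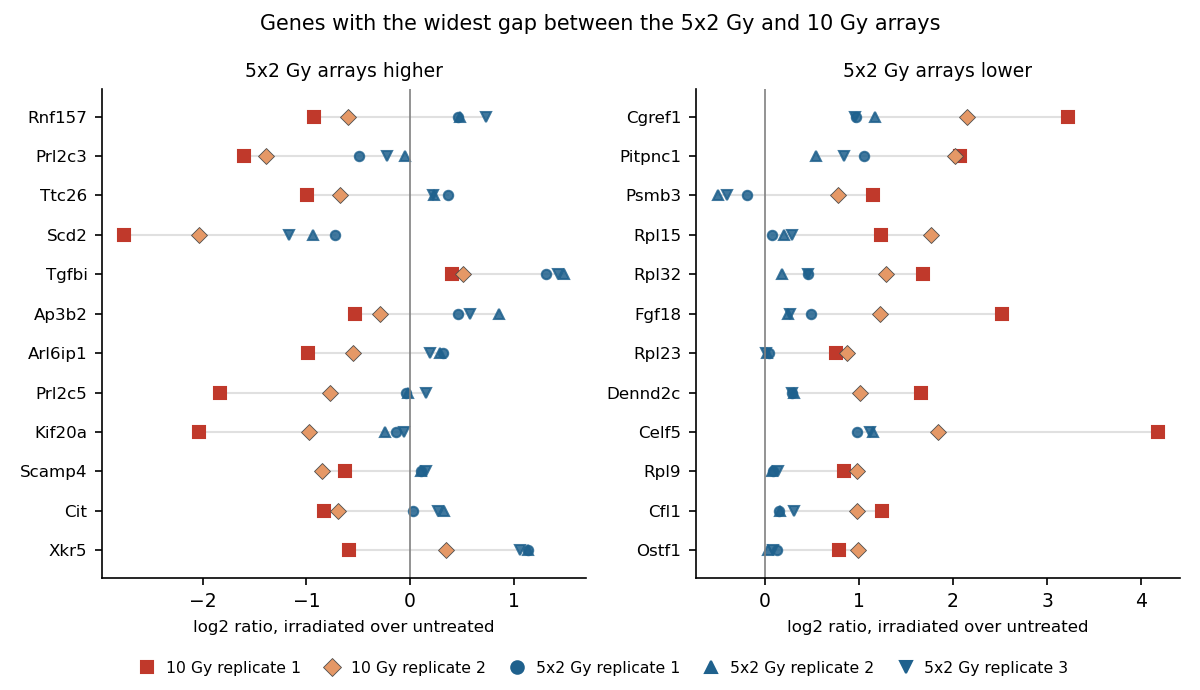
Log2 ratio of irradiated over untreated cells (x axis) of the 12 genes in each direction with the widest gap between the nearest arrays of the regimens; red squares and orange diamonds are 10 Gy replicates 1 and 2 and blue symbols the 5x2 Gy replicates. The genes were chosen by this gap, so an empty space between the colours is built in.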

How the data were processed

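Per the file headers, each scanner file holds the mean and median pixel intensity of every spot and channel, quantified with ImaGene 9.0, uncorrected for background and not normalized. The series matrix that the authors deposited holds log2 ratios of Cy5 over Cy3. Its columns correlated with loess-normalized ratios of the same arrays without background correction at r = 0.9982 to 0.9998 with slopes of 0.9933 to 0.9992 and had medians of -0.0045 to 0.0087, which settled scale, centring and direction. Its values served as an alternative.

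Mean intensities were corrected with normexp (offset 50, foreground only) and normalized by loess within arrays (control spots weighted 0) with limma 3.58.1 in R 4.3.3. Of 41174 probes, 21685 lay above the median of 153 negative controls plus 2.6 robust SD in 1 channel on at least 2 arrays. Symbols came from RefSeq accessions for 27902 probes and from the array for 7042, and 6230 had none. Of the genes tested, 4976 had more than 1 kept probe. A model with 1 mean per regimen over 8 arrays (5 residual and 4.6 prior degrees of freedom) was moderated with eBayes without trend, and p-values were adjusted by Benjamini-Hochberg at 0.05. The fit was also run on simulated data. The simulated errors were independent, of equal spread in every regimen and without a slide effect, so that run does not bear on differences between slides.

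The comparison, the gene lists and the rules for naming genes were chosen with earlier results of these data known. Named genes are Gapdh, Trp53, Cdkn1a, Ccng1 and Mdm2, up to 6 members per list by smallest p and, as a rule added when no gene was called, the 12 per direction with the widest gap between regimens; those for called genes found none. The text gives a part of them, and names the ones picked after their values were seen. A dye effect of a gene drops out of the difference only if all arrays share it. P-values measure the spread between arrays of cultures that the labels call biological replicates. Same-numbered arrays did not deviate together (r = -0.243 and -0.203 between 10 Gy and 5x2 Gy), so numbers were not read as pairs. Alternatives were other background, normalization, spot, flag, probe and filter settings, array weights, slide and replicate blocks, and leaving out each array.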

Additional observations from a re-analysis of the deposited data

Results flagged for a closer look

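All values here are differences of mean log2 ratios, 5x2 Gy minus 10 Gy, of results where every array of one regimen lay above 0 and every array of the other below 0. No adjusted p of these differences passed 0.05 in limma, and no separate test was made of the opposite signs. With 2 and 3 arrays, no group was large enough to be searched for an outlying array.

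Above 0 after 5x2 Gy and below 0 after the single dose were Rnf157 (1.32), H1f2 (1.23), Ttc26 (1.11), Vcam1 (1.10), Cdc25c (1.05), COX2 (1.05), Ap3b2 (1.04) and Arl6ip1 (1.04). Smaller differences of the same kind were those of Cit (0.97), Cxcl5 (0.89), Scamp4 (0.86), Rpl26 (0.78), Polm (0.69), Rfc2 (0.67), Mvk (0.59), Cdt1 (0.55), Slc2a3 (0.53), Fanci (0.45) and Glb1 (0.45). The reverse held for Psmb3 (-1.33), Apaf1 (-0.97), Ndufb6 (-0.93), Ciart (-0.81), Nr4a1 (-0.64) and Ndufb5 (-0.50). For Ciart neither channel was well above background on any 5x2 Gy array, so the sign of its ratio there is not read, and 1 of the 2 kept probes of Vcam1 had the other sign. The median of the nuclear respiratory chain list also changed sides, with a difference of -0.35.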

How the results depend on the processing

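The count of 0 called genes held under every alternative run in limma but 2: with median pixel signals 1 gene was called lower after 5x2 Gy (Psmb3, difference -2.01, adjusted p = 0.0106), and leaving out 1 array at a time gave 0 to 5786 calls (0 to 3096 higher and 0 to 2690 lower), of which the non-zero counts all came from leaving out 10 Gy replicate 2. The single dose was then 10 Gy replicate 1 alone, assumed to vary like the other groups; without 10 Gy replicate 1 there were 0 calls and the lowest adjusted p was 0.0623. Genes at an unadjusted p under 0.05 numbered 2241 as reported, 783 with array weights, 3000 without a filter and 6928 without 10 Gy replicate 2. Replicate number as a block gave 0 calls and 1732 such genes; with 2 pairs between these regimens no pairing was read from it.

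Median differences of lists moved as follows. With slide as a block, which equals the 4 arrays of slide 2, they were -0.254 (p53), 0.198 (mitosis), -0.038 (replication), -0.108 (recombination), -0.027 (end joining), 0.124 (histones), 0.352 (cholesterol), -0.026 (ribosomal), 0.255 (mitochondrial), 0.15 (ATF4), 0.042 (MHC), 0.146 (lysosome) and -0.195 (respiratory chain). With slide as a random block they were -0.058 (ATF4), 0.203 (matrix), 0.138 (lysosome) and -0.107 (clock). Median centring gave -0.897 (ribosomal), 0.065 (hypoxia), -0.546 (MHC), -0.184 (interferon), -0.356 (chaperones), -0.113 (lysosome) and -0.716 (respiratory chain). With flagged spots left out they were -0.013 (ribosomal), -0.071 (lysosome) and -0.506 (respiratory chain), over genes with no flagged spot on any array. With probes above background in both channels on all 5 arrays they were 0.387 (histones), 0.261 (matrix), 0.109 (lysosome) and 0.087 (clock). The lysosome median was 0.009 with scaling between arrays and -0.003 with median pixel signals, and the clock median -0.129 with median pixel signals and 0.070 with array weights. The cause of these shifts was not tested.

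Leaving out 1 array gave ranges of -1.031 to -0.254 (p53), 0.198 to 1.381 (mitosis), -0.038 to 0.435 (replication), -0.108 to 0.519 (recombination), -0.027 to 0.219 (end joining), 0.124 to 0.336 (histones), -0.102 to 0.026 (apoptosis), 0.352 to 0.678 (cholesterol), -0.908 to -0.026 (ribosomal), 0.255 to 1.879 (mitochondrial), -0.991 to 0.15 (ATF4), -0.599 to 0.042 (MHC), -0.177 to 0.021 (interferon), -0.261 to 0.047 (cytokines), -0.648 to 0.098 (NRF2), -0.161 to -0.003 (chaperones), -0.030 to 0.146 (lysosome), -0.484 to -0.195 (respiratory chain) and -0.145 to 0.004 (clock). Each end came from leaving out a 10 Gy array except for histones, lysosome, clock and chaperones. Of single genes, Gapdh was at -0.333 with median centring, -0.180 with median pixel signals and -0.015 over the mean of its probes, and ATP6 at -0.327 within slide 2. Leaving out 1 array gave -0.806 to 0.082 for Ccng1 and -0.327 to 1.872 for ATP6. The other named genes kept their direction under all alternatives in which they were measured.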

Other observations

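Within slide 2, 6 genes lay at least 2-fold above 10 Gy replicate 2 in the mean of the 5x2 Gy arrays and 11 at least 2-fold below, and a part of these is not described above. They were picked after their values were seen. Emilin1, a glycoprotein of elastic fibres, was at 0.68 and 0.20 after 10 Gy and 1.08, 1.56 and 1.33 after 5x2 Gy, with every 5x2 Gy array above both single-dose arrays and a difference of 1.12 within slide 2 against 0.88 over both arrays (limma with slide as a block, adjusted p = 0.08). Dnmt3b, a DNA methyltransferase that sets new methylation, was at -0.083 and 0.62 after 10 Gy and -0.44, -0.41 and -0.47 after 5x2 Gy, the lowest on the 5x2 Gy arrays, where its irradiated channel was above background on none (difference within slide 2 -1.06, adjusted p = 0.0623 with slide as a block).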
